A study of Mus musculus with 2 samples.

Results

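The centromere, kinetochore and spindle checkpoint genes were followed in mouse primary hepatocytes with and without *Drp1*, the gene of the mitochondrial fission GTPase (array name *Dnm1l*). The group held 38 of the 37074 gene names on the array and was taken from a list of names, with every probe of each name, whatever its signal. By the study's methods, control mice were *Drp1* flox/flox littermates and *Drp1*LiKO mice were in addition Alb-Cre Tg/+, so that both groups would carry the floxed alleles. The sample label instead calls the control wild type, and the sources used here do not settle which holds for this array. The labels give the C57BL/6 background for both, and Cre was driven by the albumin promoter, which is active in hepatocytes. The cells were harvested 24 h after seeding. The methods name purchased C57BL/6J mice that were young adult males, and do not state separately the age and sex of the crossed mice behind these cultures. Each genotype was read on 1 Cy3 array, and the 2 arrays shared a slide. Replicates were lacking, so no test could be made, and each difference describes these 2 arrays and not the spread between cultures.

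The centromere is marked by nucleosomes that hold the histone variant CENP-A, and a constitutive network of CENP proteins binds to them throughout the cell cycle. In mitosis this network carries the MIS12 and NDC80 complexes, which grip microtubules, and the spindle checkpoint delays anaphase until all kinetochores are attached. Many of these genes are transcribed mainly in G2 and mitosis, so that their mRNA is scarce in resting adult liver and rises when hepatocytes enter the cycle.

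Values are processed signals, a linear intensity after background correction, and log2 ratios of *Drp1*LiKO over control after each array was set to its 75th percentile (313 on the control array, 356 on the *Drp1*LiKO array). A gene was represented by its brightest probe. A gene was called lower or higher when its Z score, the distance of its ratio from the mean of all compared probes in units of their SD, reached 2, which is the threshold the study names. A Z score of -2 was a log2 ratio of -1.31, or 2.48-fold lower. *Dnm1l* had a signal of 2602 on the control array and 1217 on the *Drp1*LiKO array (ratio -1.28, Z score -1.95), and its dimmer probe had signals of 22.8 and 20.9. The brighter *Dnm1l* probe was thus lower in the cells labelled *Drp1*LiKO, but whether either probe lies in the deleted exons was not known here.

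Nearly the whole group was lower in *Drp1*LiKO cells. All 38 genes were well above background on at least 1 array, 37 had a log2 ratio below 0, and the median ratio was -1.16, a 2.24-fold lower level. The median of all 20165 genes compared was -0.05, and 55.5% of them lay below 0. Of the 38 genes, 17 were called lower, against a background of 2.81% of all genes. None was called higher, against 3.5% of all genes. The count of 17 became 9 when dim signals were not raised to a floor, beside 2.53% of all genes, and 26 with a robust Z score, beside 7.16%. The ratio reached -1 or less in 21 genes, -1.5 or less in 13 and -2 or less in 7. In a bulk culture, fewer cells that express a gene and less of its RNA per cell cannot be told apart.

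**Figure D1:**
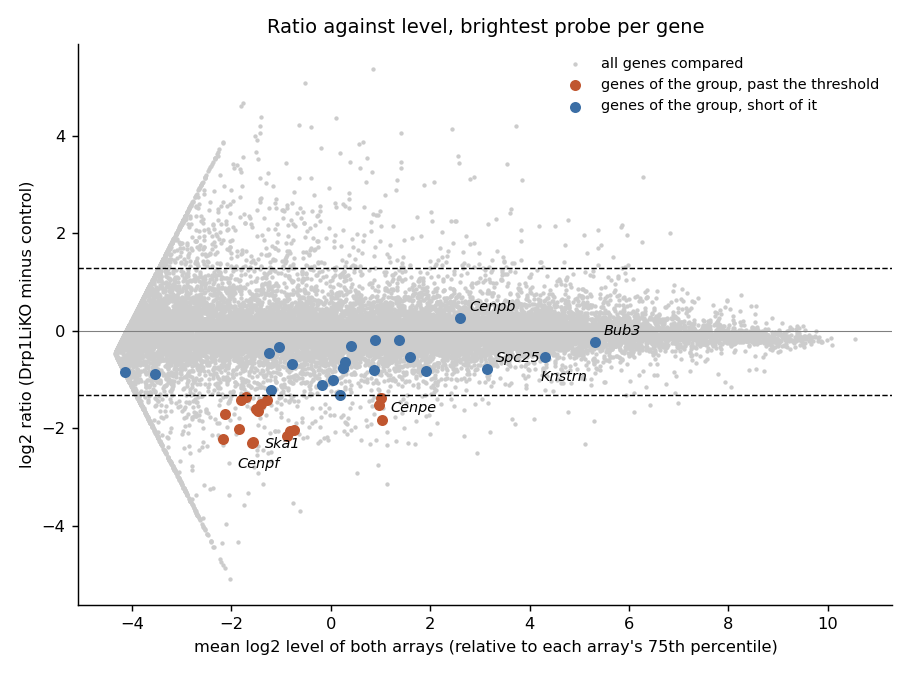
Each point is a gene, with its mean log2 level on both arrays on the x axis and its log2 ratio on the y axis (dashed lines, Z scores of 2 and -2). The 38 genes of the group lie below 0 apart from *Cenpb*, and 17 lie below the lower line. Slanted edges at the left are genes measured above background on 1 array only, whose ratios are bounds.

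The lower ratios were not spread evenly over the range of signals. Of the 19 genes with the lower mean level, with control signals of 23.7 to 361, 13 were called lower and the median ratio was -1.51. Of the 19 with the higher mean level, with control signals of 378 to 13475, 4 were called lower and the median ratio was -0.79. The share of all genes called in the same signal ranges was not taken, so whether this split is particular to the group was not tested. When the Z score was taken among probes of similar signal, 17 genes were again past the threshold, beside 3.62% of all genes. Every probe of the group was printed in 1 spot. The spot-to-spot SD of a ratio, estimated from probes printed 10 times at similar signal, ranged from 0.05 for the brightest of the 38 genes to 0.36 for the dimmest. Among the ratios of the 38 genes, none rested on a saturated spot or on an outlier spot.

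Because the genes moved together, their promoters are shown here, before the values of each complex. Short elements are known from genes of G2 and mitosis, the cell cycle genes homology region (CHR) and, upstream of it, the CCAAT box, which is bound by NF-Y. RefSeq promoter windows (GRCm38.p6, 250 bases before to 50 after the start) were matched by symbol for 34 of the 38 genes. *Zwilch*, *Nsl1*, *Spc24* and *Ska1* had no matched window. Each of these was called lower, so the promoter counts for genes called lower rest on 13 of 17, against 21 of 21 not called. The CHR was searched as TTTGAA and TTCGAA and the CCAAT box as CCAAT, each on both strands. A CHR word lay anywhere in the window of 17 of 34 genes (50%), against 21.7% of the 27025 genes with a window. The CCAAT word lay in 21 of 34 (61.8%), against 41.1%. Among the 11581 genes compared on the arrays that had a window, these shares were 17.3% for the CHR and 42.2% for CCAAT.

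A distance of 50 bases from the start was chosen after the positions were seen. Within it, a CHR word lay in 6.12% of all genes with a window and 4.59% of those compared on the arrays. In the group it lay in 13 of 34 genes (38.2%). These 13 were 8 of the 13 genes called lower that had a window (61.5%) and 5 of the 21 not called (23.8%). Over the whole window the contrast was smaller, with a CHR word in 8 of the 13 called lower (61.5%) and 9 of the 21 not called (42.9%). The sites of 5 genes called lower follow, 30 bases each on the coding strand from 5′ to 3′, with the CHR word in capitals, since *Cenpf*, *Ttk* and *Bub1* were among the lowest ratios of the group.
Cenpf (chr1:189688067-189688096, minus strand): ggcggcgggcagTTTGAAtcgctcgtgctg
Ttk (chr9:83834684-83834713, plus strand): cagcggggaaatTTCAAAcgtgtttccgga
Bub1 (chr2:127831828-127831857, minus strand): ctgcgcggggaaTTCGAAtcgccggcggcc
Ndc80 (chr17:71526811-71526840, minus strand): gaaactttaaaaTTCAAAccgccttgggtt
Cenpn (chr8:116921719-116921748, plus strand): gccattggcggcTTCAAAagcacctcggcg

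A CHR word near the start was not limited to genes called lower. *Cenpa*, short of the threshold, and *Bub3*, whose ratio was near that of the array as a whole, also held one.
Cenpa (chr5:30666890-30666919, plus strand): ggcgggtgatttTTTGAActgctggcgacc
Bub3 (chr7:131560315-131560344, plus strand): gagccgttggcgTTCAAAatcagccaatga

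The CCAAT word stood upstream of several of these sites, and in *Cenpq*, which was called lower without a CHR word near its start, the word occurs in tandem. The 100 bases before the start of *Ttk* and *Cenpq* are shown, with CCAAT in capitals.
Ttk (chr9:83834589-83834688, plus strand): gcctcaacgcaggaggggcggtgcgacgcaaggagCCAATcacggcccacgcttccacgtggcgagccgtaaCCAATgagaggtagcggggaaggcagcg
Cenpq (chr17:40934575-40934674, minus strand): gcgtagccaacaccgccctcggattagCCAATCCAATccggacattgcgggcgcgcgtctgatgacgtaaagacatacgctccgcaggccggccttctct

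E2F words of 8 bases (TTTGGCGC, TTTCCCGC, TTTCGCGC and TTTGCCGC, both strands) lay in the windows of 5 of 34 genes (14.7%). The share was 2.61% of all genes with a window and 4.08% of those compared on the arrays. The 5 were *Cenpb*, *Cenpl*, *Cenpm*, *Dsn1* and *Mis18a*, none of which was called lower, though the genes without a window could not be searched. A match is a run of letters in this window and was not read as a bound site.

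The outer kinetochore proteins CENP-F and CENP-E, large coiled-coil proteins that load onto kinetochores in mitosis, had the lowest median ratio of the groups, -2.06, and the genes of both were called lower. *Cenpf* had signals of 231 on the control and 53.6 on the *Drp1*LiKO array, and signals are given in this order from here on. Its log2 ratio was -2.29 (4.90-fold lower), read by a probe at chr1:191465934-191465993 on the minus strand (mm9). Its other probe was measured above background in control cells only and gave a ratio of at most -2.28. *Cenpe*, the gene of a kinesin that moves chromosomes to the spindle equator, had signals of 1195 and 385 and a ratio of -1.82.

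Genes of the NDC80 complex, the main coupler between kinetochore and microtubule, had a median ratio of -1.53, and 3 of 4 were called lower. *Nuf2* had signals of 378 and 105 (ratio -2.03), and *Ndc80*, its partner at the microtubule end, 130 and 45.6 (ratio -1.70). *Spc24*, whose product joins the complex to the inner kinetochore, had signals of 1014 and 445 (ratio -1.37). Its partner *Spc25* was not called, with signals of 3621 and 2383 (ratio -0.79) and a ratio of -0.87 from a dimmer probe. The 4 subunits of this single complex were therefore lower by unequal amounts on these arrays.

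The SKA complex, which helps NDC80 hold on to shortening microtubules, showed the same kind of range. *Ska1* had signals of 233 and 54.3, a log2 ratio of -2.28 (4.87-fold lower). *Ska3* had signals of 203 and 73.3 (ratio -1.65). *Ska2* was dim on both arrays, with signals of 36.8 and 22.7 and a ratio of -0.88, and was not called. In the MIS12 complex, the bridge between inner and outer kinetochore, only *Nsl1* was called lower (signals 212 and 90.2, ratio -1.42). *Dsn1* had signals of 233 and 165 (ratio -0.68), with -1.21 from its dimmer probe. *Mis12* itself had signals of 170 and 154 (ratio -0.33).

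**Figure D2:**
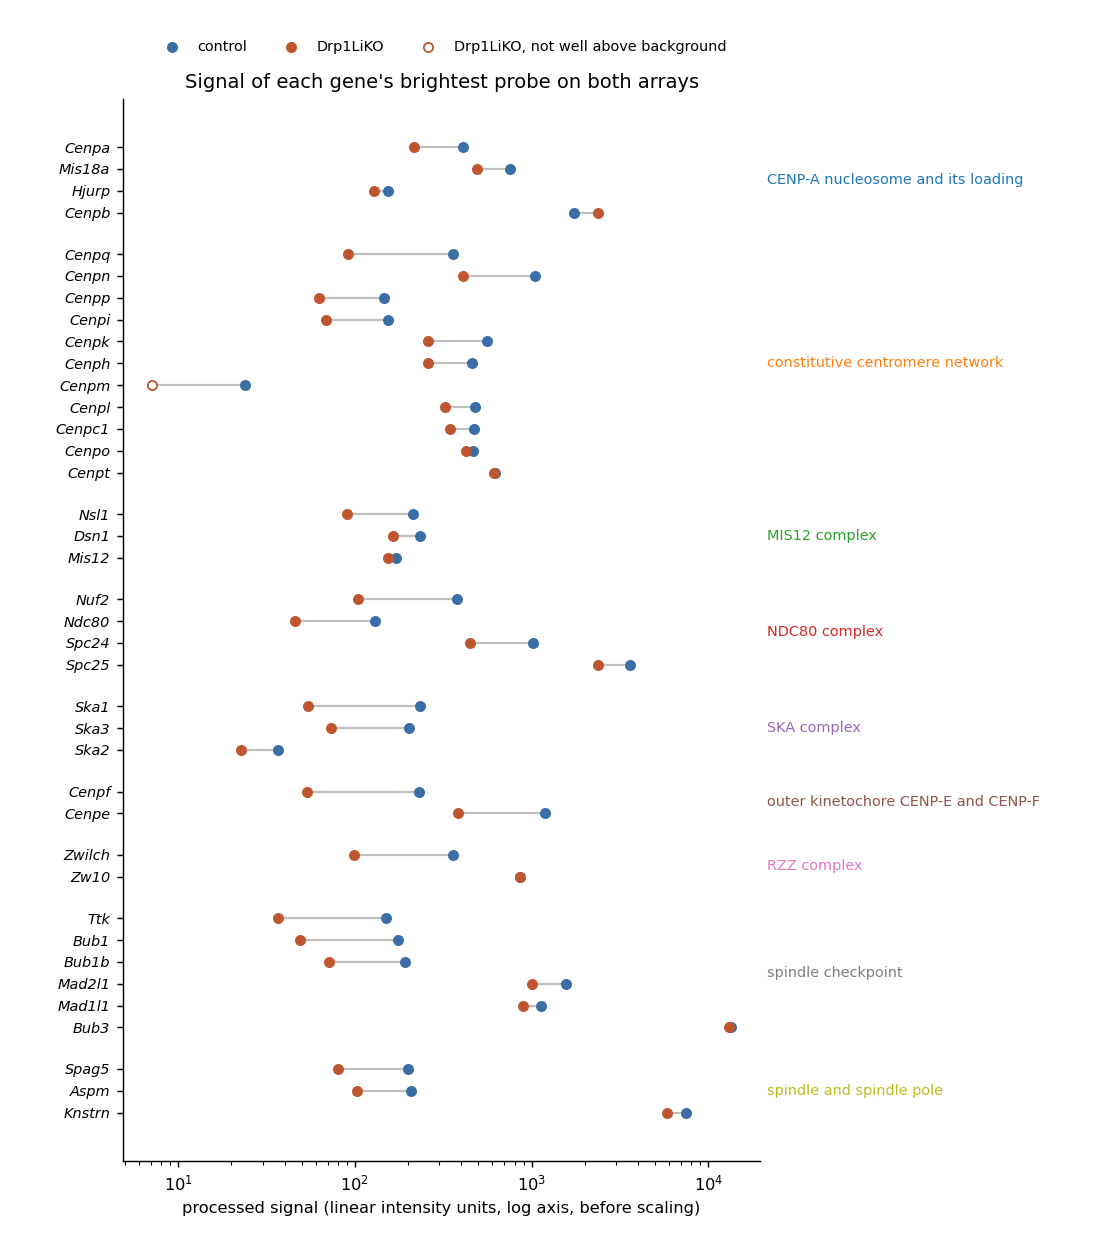
Processed signal on a log axis of the brightest probe of each of the 38 genes on the control (blue) and *Drp1*LiKO (orange) array, grouped by complex. Signals are before scaling, and 37 of 38 genes had the *Drp1*LiKO signal to the left of the control signal. The open circle is *Cenpm*, not well above background in *Drp1*LiKO cells.

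In the spindle checkpoint, the kinases and the BUBR1 subunit were called lower and the remaining parts were not. *Ttk*, the gene of the MPS1 kinase that starts checkpoint signaling, had signals of 151 and 36.7, a log2 ratio of -2.22 (4.66-fold lower), and a further probe measured on both arrays gave -2.20. A dimmer probe, above background in control cells only, gave a ratio of at most -1.31. *Bub1*, the gene of the kinase that recruits checkpoint proteins, had signals of 175 and 48.9 (ratio -2.02). *Bub1b*, which encodes BUBR1, had signals of 193 and 71.7 (ratio -1.61). These 3 genes had control signals of 151 to 193. *Mad2l1*, the gene of the inhibitor MAD2, was not called, with signals of 1567 and 1006 (ratio -0.82). *Mad1l1*, whose product docks MAD2 at kinetochores, had signals of 1128 and 890 (ratio -0.53). *Bub3* had signals of 13475 and 13030 (ratio -0.23), so its level relative to the array was close to that in control cells. BUB3 also has partners outside the checkpoint.

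The RZZ complex recruits dynein and checkpoint proteins to kinetochores without microtubules, and its genes were unlike each other. *Zwilch* had signals of 359 and 98.9, a log2 ratio of -2.04, and its other detected probes gave -1.75 and -1.07. *Zw10*, which also acts in membrane traffic of interphase cells, had signals of 862 and 857 (ratio -0.19). The subunit outside the named group, *Kntc1*, had signals of 277 and 74.1 (ratio -2.09), close to *Zwilch*.

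Among the 11 genes of the constitutive centromere network, 4 were called lower and all had a ratio below 0, with a median of -1.01. *Cenpq* had signals of 361 and 91.9, a log2 ratio of -2.16, with -1.97 from a dimmer probe measured on both arrays. Its last probe did not show this, with signals of 17.96, not well above background, and 19.7. *Cenpn*, whose product reads the CENP-A nucleosome directly, had signals of 1043 and 411 (ratio -1.53). *Cenpp* had signals of 147 and 62.4 (ratio -1.42). *Cenpi* and *Cenpk*, which belong to the CENP-H/I/K/M subcomplex, lay on either side of the threshold. *Cenpi* was just inside it, with signals of 154 and 68.4 (ratio -1.35, Z score -2.06), and *Cenpk* just outside, with signals of 561 and 258 (ratio -1.31, Z score -1.99). The other probes of *Cenpk* gave -1.67 and -1.19. *Cenph* of the same subcomplex had signals of 459 and 259 (ratio -1.01), but its dimmer probe, with 27.1 and 27.0, gave -0.19. *Cenpm*, its last member, had a signal of 23.7 in control cells and was not well above background in *Drp1*LiKO cells (7.10), which made it at least 1.80-fold lower.

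The remaining genes of this network were closer to the array as a whole. *Cenpl* had signals of 480 and 324 (ratio -0.75, and -0.78 from its dimmer probe). *Cenpc1*, the gene of CENP-C, the scaffold that binds both CENP-A and MIS12, had signals of 475 and 346 (ratio -0.64). *Cenpo* had signals of 467 and 426 (ratio -0.31), and its dim probes gave -0.11 and 0.01. *Cenpt*, whose product recruits NDC80 independently of CENP-C, had signals of 621 and 616 (ratio -0.19).

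None of the 4 genes of the CENP-A nucleosome and its loading was called. *Cenpa* had signals of 411 and 215 and the lowest ratio of these, -1.12. *Mis18a*, which licenses the centromere for new CENP-A, had signals of 757 and 489 (ratio -0.81). *Hjurp*, the gene of the CENP-A chaperone, had signals of 154 and 128 (ratio -0.45). *Cenpb*, whose product binds a repeat of centromeric DNA, had signals of 1732 and 2363 and was the single gene of the group above 0 (ratio 0.27). Its dimmer probe, above background in *Drp1*LiKO cells only, had signals of 19.9 and 41.6. The direction of the brighter probe was not stable, since it gave -0.69 in the intensities that the authors normalized between arrays.

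Of the genes of the spindle and its poles, *Spag5*, the gene of the kinetochore and spindle protein astrin, was called lower (signals 201 and 80.0, ratio -1.51), with at most -0.84 from a probe above background in control cells only. *Aspm*, the gene of a protein of the spindle pole, had signals of 208 and 102 (ratio -1.21). *Knstrn* encodes the astrin partner kinastrin, and its probes disagreed in size. The brighter had signals of 7445 and 5824 (ratio -0.54) and the dimmer 308 and 107.5 (ratio -1.70, Z score -2.60). By any detected probe, 19 of the 38 genes were called lower, beside 3.42% of all genes.

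Probes of 1 gene mostly went the same way. Of the 73 probes of the group, 59 were well above background on at least 1 array, and 56 of them had a ratio below 0. In 15 of 16 genes with several detected probes, all had the same sign, counting bounds at their value, with *Cenpo* the exception. The size differed more, by up to 2.08 on the log2 scale between probes of *Cenpq*. The probes of *Mad1l1* overlap on the transcript and are not separate readings.

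**Figure D3:**
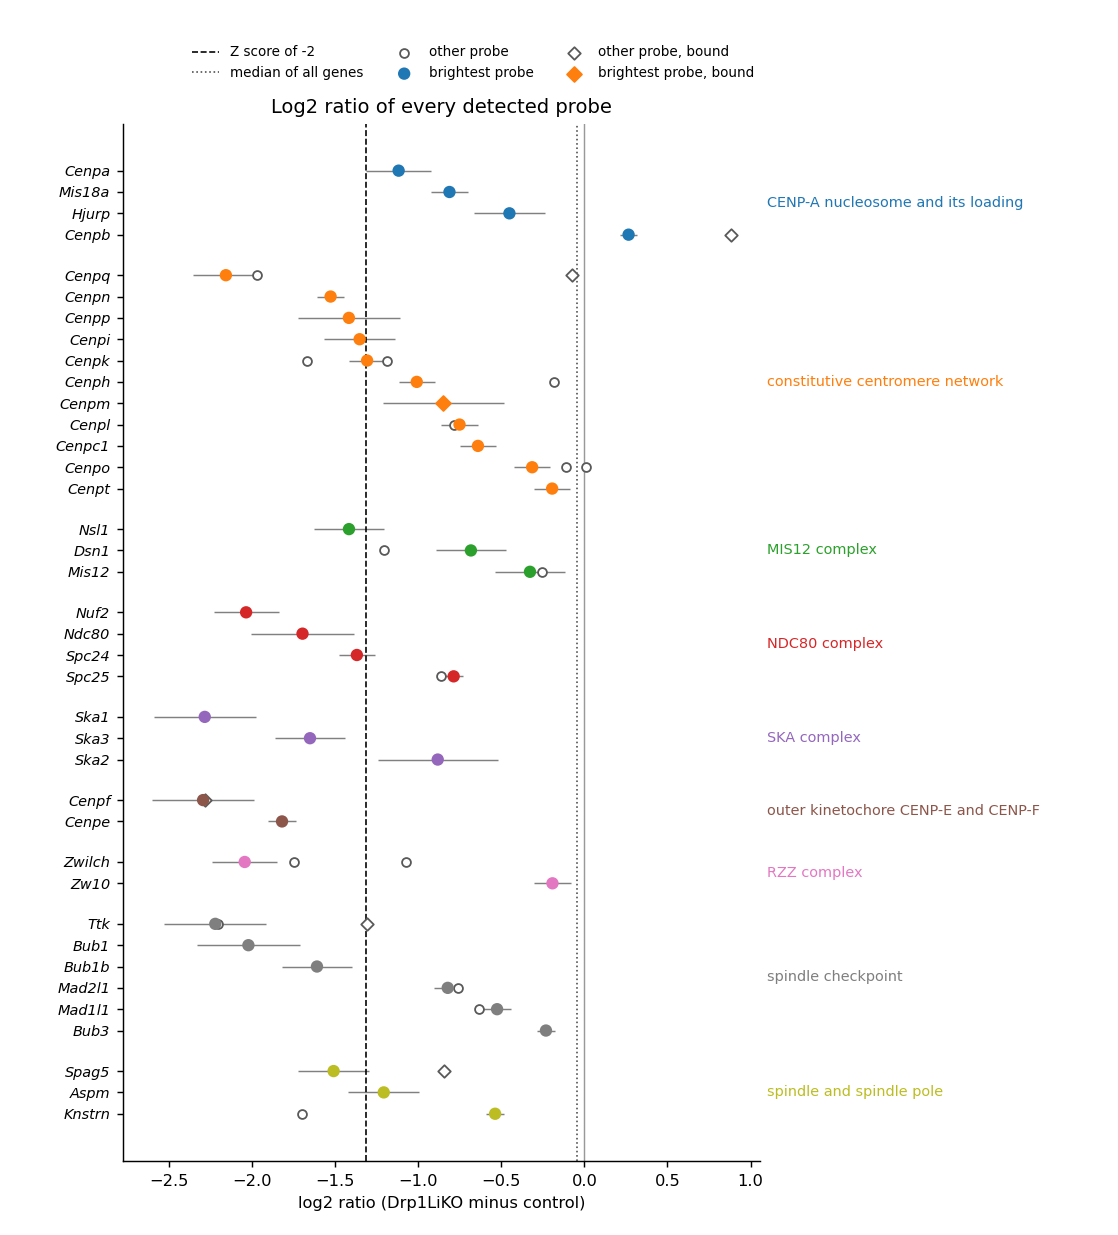
Log2 ratios of all 59 detected probes by gene and complex (filled, brightest probe; open, other probes; diamonds, bounds), with horizontal bars for the estimated spot-to-spot SD of the brightest probe. The dashed line is a Z score of -2 and the dotted line the median of all genes. CENP-E and CENP-F lie left of the dashed line and the CENP-A genes right of it, while every other complex has genes on both sides.

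Genes of the kinetochore and centromere outside the 38 ran in the same direction. All 21 on a list of such genes had a ratio below 0, with a median of -0.95, and 5 were called lower. These were *Cdc20*, the target that the checkpoint inhibits (signals 1693 and 402, ratio -2.26), *Kntc1*, *Birc5*, the gene of survivin in the chromosomal passenger complex (signals 5908 and 1605, ratio -2.06), *Knl1*, the checkpoint platform listed as *Casc5* (signals 223 and 66.5, ratio -1.93), and *Cenpu* (signals 197 and 84.4, ratio -1.40). The other passenger genes were not called, with ratios of -1.22 for *Cdca8*, -1.15 for *Aurkb* and -0.56 for *Incenp*. *Sgol1*, which protects cohesion at the centromere, had -1.29, and *Sgol2* had -0.89. *Oip5*, which acts in CENP-A loading, had -1.20.

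The highest ratio of that list was -0.03, of *Cenpw*. *Pmf1*, a MIS12 subunit, had a ratio of -0.95, *Spdl1*, the gene of the dynein adaptor spindly, -0.94, and *Trip13*, which takes apart MAD2 complexes, -0.90. Partners of CENP-T were nearer 0, with -0.45 for *Cenpx* (listed as *Stra13*) and -0.20 for *Cenps* (listed as *Apitd1*). *Mad2l1bp* had -0.21, *Bod1* -0.11 and *Itgb3bp*, the gene of CENP-R, -0.11.

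The mitotic kinases and cyclin B had a lower median than the 38 genes, and genes of DNA replication a median nearer 0. Of 10 kinase and cyclin B genes 7 were called lower, with a median ratio of -1.44, from *Plk1* (signals 2273 and 519, ratio -2.31) to *Mastl* (ratio -0.04). Of 21 genes of replication licensing and fork 3 were called lower, with a median of -0.70, from *Cdc6* (signals 731 and 227, ratio -1.87) to *Orc3* (ratio 0.22). These medians describe the lists on the same 2 arrays, and the differences between lists were not tested.

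**Figure D4:**
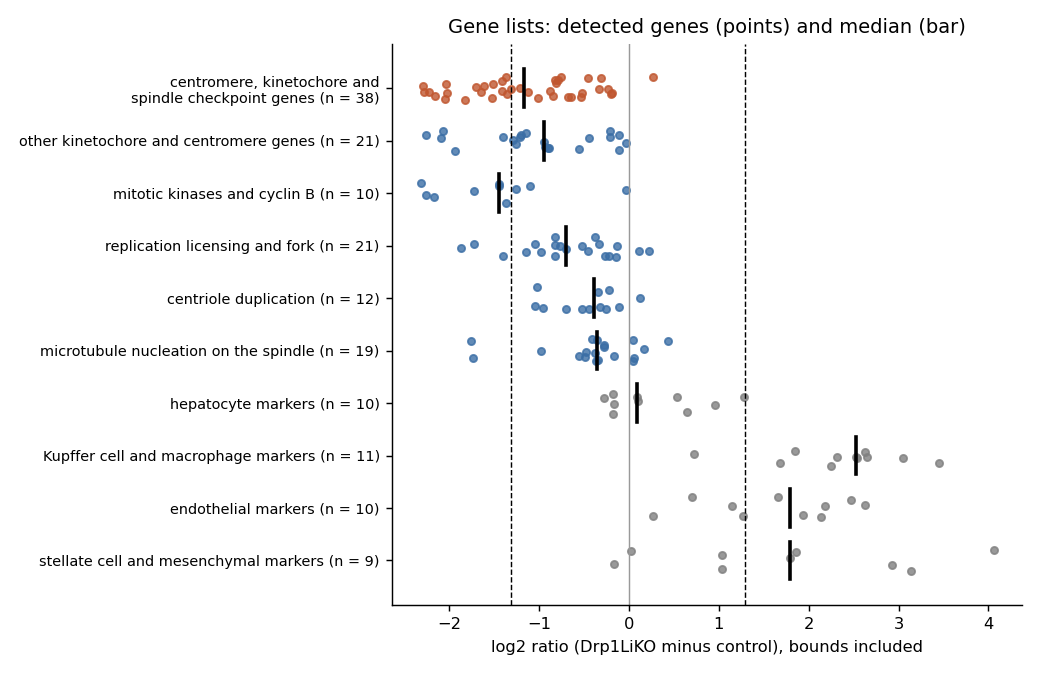
Log2 ratio of each detected gene (points, bounds included) and the median (bar) of the 38 genes, of 5 other gene lists of cell division, and of marker lists (dashed lines, Z scores of 2 and -2). The lists of cell division have medians below 0, and the macrophage, endothelial and stellate marker lists have medians of 1.79 or more.

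Markers of macrophages, endothelial cells and stellate cells moved in the opposite direction. Markers of cholangiocytes went both ways, and too few markers of T and NK cells, B cells and neutrophils were detected to give a direction. The median log2 ratio of the hepatocyte markers was near that of the array as a whole, 0.10 over 10 genes, 6 of them above 0. Their summed signal was 642909 against 709390. *Pck1* was above background in *Drp1*LiKO cells only (signals of 11.7 and 40.2). Ratios of the hepatocyte markers ranged from -0.28 for *Fgb* to 1.28 for *Tat* (signals of 151 and 416, Z score 1.97), and none was called. *Serpina1a*, the brightest of them in control cells, had signals of 338486 and 339334. Summed signals were taken before the arrays were scaled, unlike the ratios, and the few brightest genes of a list make up most of its sum. Of 12 Kupffer cell and macrophage markers 11 were detected, all 11 were above 0 and 10 were called higher, and their summed signal was 4.35 times that of control cells. *Cd68*, the brightest of them in control cells, had signals of 2346 and 9593. *Clec4f* (signals of 13.7 and 119) and *Vsig4* (14.7 and 66.4) were above background in *Drp1*LiKO cells only. Both were called higher, but they were detected only through that array, which favors a ratio above 0. The macrophage marker *Timd4* was not well above background on either array.

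Endothelial and stellate cell markers followed the macrophage list. All 10 endothelial markers were above 0 and 6 were called higher (summed signal 2.17 times that of control cells, *Egfl7* with signals of 3773 and 6941). Among them *Lyve1*, called higher, and *Tek*, not called, were above background in *Drp1*LiKO cells only. Of 10 stellate and mesenchymal markers 9 were detected, 8 were above 0 and 5 were called higher (summed signal 23125 in control against 34730, *Acta2* with signals of 21437 and 24640). *Col3a1* and *Pdgfrb*, both called higher, were above background in *Drp1*LiKO cells only. The detected marker not above 0, *Des*, was above background in *Drp1*LiKO cells only (signals of 6.47 and 18.5). Its ratio of -0.16 is therefore a lower limit, which leaves its direction open. Of 6 cholangiocyte markers 4 were detected and 2 were above 0, with *Spp1* at 24719 and 20346. *Krt7*, which was above 0, was above background in *Drp1*LiKO cells only. Only 1 of 8 T and NK cell markers (*Cd3e*, signals of 251 and 220), 2 of 5 B cell markers (*Pax5*, signals of 27.5 and 21.7) and 2 of 6 neutrophil markers (*Csf3r*, signals of 16566 and 21213) were detected. The other detected neutrophil marker, *Ly6g*, was above background in *Drp1*LiKO cells only (signals of 17.5 and 76.9) and was called higher. The other detected B cell marker, *Ms4a1*, was also above background in *Drp1*LiKO cells only (signals of 3.91 and 16.9). The part of these other cells in the lower signals of the kinetochore genes was not tested.

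Of the 38 genes, 11 stand in a list of mitotic nuclear division genes that the study drew from its downregulated genes on these same arrays. Of these 11, 8 were called lower here and the median ratio of the 11 was -1.70, which is not independent evidence of a direction. *Aspm*, *Knstrn* and *Spc25* are in the study's list but were not called here by their brightest probe. The reason for this difference from the study was not tested. Without them, 9 of the remaining 27 genes were called lower, and their median ratio was -0.85.

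**Figure D5:**
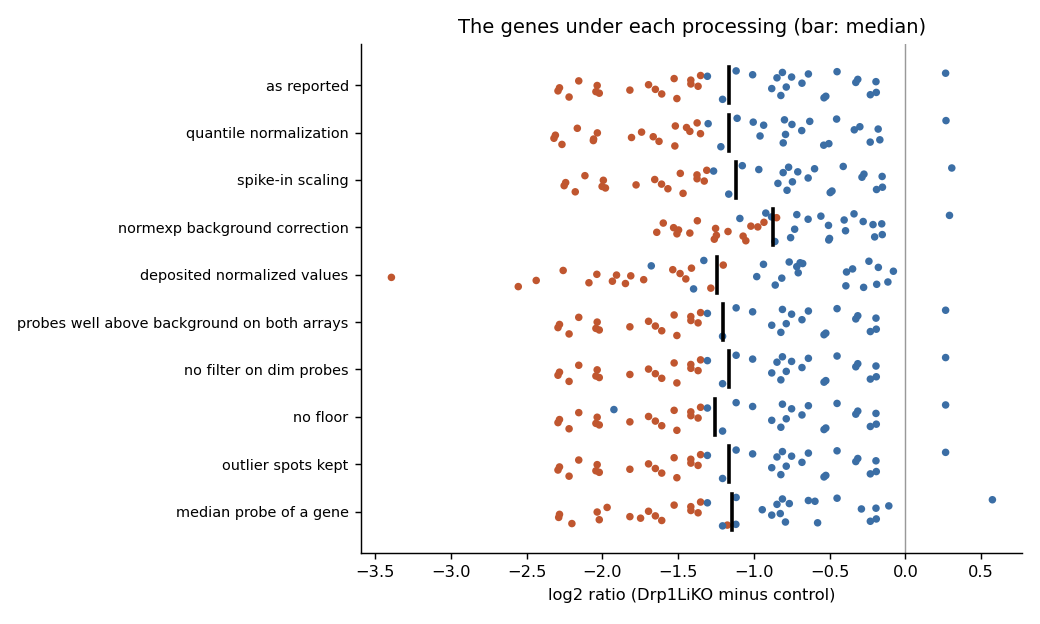
Log2 ratios of the 38 genes (points; orange, called lower as reported) and their median (bar) as reported and under 9 other ways of processing the arrays. No gene but *Cenpb* goes above 0 in any of them, and the ratios are smaller after normexp background correction, where the median is -0.87.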

How the data were processed

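Per the labels, RNA of 1 control and 1 *Drp1*LiKO hepatocyte culture was hybridized to Agilent SurePrint G3 mouse arrays in 1 color. The authors deposited Feature Extraction output (version 10.7.1.1 in the file headers, 9.5.1.1 in the submitters' processing notes) with the intensity of each spot, corrected for background by that software, its coordinates in mm9, and other flags for outliers, saturation and signals well above background. The deposited table of normalized intensities was used only as an alternative, because its *Drp1*LiKO column did not keep the order of that array's probes (rank correlation 0.958, against 0.999999 for control).

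After removal of outlier and control spots, log2 signals were averaged over the spots of a probe and centred on the 75th percentile of their array. The 30275 probes well above background on either array were kept. Dim signals were raised to the lowest signal well above background (18.2 in control, 15.0 in *Drp1*LiKO), which turns such ratios into bounds. With 1 array per group, called means a Z score of at least 2. The number of arrays limits the precision.

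The 38 genes, the other lists and the thresholds were chosen with earlier results of these data known. All 38 genes, *Dnm1l*, the further kinetochore genes (1 is not reported here), the lowest and highest gene of each other list, and the brightest marker of each cell type are named. Further genes named were chosen after their values were seen. The steps were tested on simulated data. Python 3.11.15, numpy 2.4.6, pandas 2.3.3, matplotlib 3.10.9, R 4.3.3 and limma 3.58.1 were used. Alternatives covered normalization, background, filters, the floor, probes and the Z score.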

Additional observations from a re-analysis of the deposited data

How the results depend on the processing

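No gene of the group was called higher under any alternative, and no gene but *Cenpb* had a ratio above 0 in any. The count of genes called lower was 16 to 21 under quantile normalization, spike-in scaling, normexp background correction, the deposited normalized intensities, other filters, outlier spots kept, the median or any probe of a gene, a Z score within bins of similar signal and a 2-fold threshold. These settings called from 1.61% (no filter on dim probes) to 4.59% (2-fold threshold) of all genes lower. The count was 9 with no floor on dim signals, beside 2.53% of all genes, and 26 with a robust Z score, beside 7.16%. With no floor, the ratios of the group were unchanged apart from *Cenpm*. The lower count there came from the scale of the Z score over all probes. Without the genes of the study's list, an alternative chosen after seeing the data, the count was 9 of 27, beside 2.81% of all genes as reported. The median ratio was -0.872 after normexp and -0.848 without the study's list, and between -1.26 and -1.12 otherwise. With no filter on dim probes the median of all genes itself was -0.47. *Cenpq*, *Nuf2*, *Ska1*, *Cenpe*, *Cenpf*, *Zwilch*, *Bub1* and *Ttk* were called lower in all 12 settings with a Z score, and 26 genes in at least 1. Of 341 values of single genes under the alternatives, 48 moved by more than the spot noise. Many of the 341 could hardly move, since the filters, kept outlier spots and spike-in scaling leave single ratios nearly unchanged by design. Most moves came with normexp and the deposited intensities, and with normexp every gene called lower as reported moved nearer 0. The normexp step also added a constant to every signal, which by arithmetic draws the ratios of dim probes toward 0. Other causes of the moves were not tested. No paired analysis was possible because each genotype had 1 array.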

Other observations

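Genes that build centrioles and nucleate spindle microtubules stood nearer 0 than the kinetochore genes on the same arrays. Of 12 centriole duplication genes none was called lower, the median log2 ratio was -0.39, and 11 were below 0. The lowest was *Poc1a*, with a control signal of 1267 and a *Drp1*LiKO signal of 697 (ratio -1.05), and the highest *Cep97*, with 550 and 681 (ratio 0.13). *Plk4*, the kinase gene that starts centriole duplication, had signals of 291 and 170 (ratio -0.96).

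Of 19 genes of microtubule nucleation on the spindle 2 were called lower, and the median ratio was -0.35. *Tacc3*, the gene of a spindle protein activated by Aurora A, had signals of 2182 and 736 (ratio -1.75), and *Tpx2*, which activates Aurora A, had 602 and 206 (ratio -1.73). The highest was *Haus8*, a subunit of the augmin complex, with 15934 and 24380 (ratio 0.43).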
